A study of Mus musculus with 6 samples.

Results

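The miR-30 family was followed through whole retinas of mice with Dicer1 deletion directed at rod photoreceptors. Its 6 mouse precursors, mmu-mir-30a, mmu-mir-30b, mmu-mir-30c-1, mmu-mir-30c-2, mmu-mir-30d and mmu-mir-30e (below without the species prefix), were taken by name from the 855 miRNA precursors of the deposited table, and all 6 passed the filter that left 461 precursors for testing. Both genotypes carried floxed Dicer1 alleles on both chromosomes (Dicerfl/fl) on a mixed C57BL/6J - SJL background. Control mice lacked the iCre75 transgene and conditional knockout (cKO) mice carried it. The iCre75 transgene expresses Cre recombinase from a rhodopsin promoter, so Dicer1 deletion is directed at rods and not at other retinal cell types. The extent of the deletion was not measured here. All mice were 4 weeks old, and each of the 3 libraries per genotype came from a pool of 6 retinas.

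Dicer is the RNase that cuts hairpin precursors of miRNAs into their mature arms. The miR-30 family is expressed in most tissues, neural tissue included, and its 5p arms share a seed, the bases 2 to 8 that pair with target mRNAs. Its genes lie in 3 genomic clusters, mir-30a with mir-30c-2, mir-30b with mir-30d, and mir-30c-1 with mir-30e, the last pair inside the gene Nfyc, which encodes a subunit of the transcription factor NF-Y. Members of a cluster can be transcribed together, whereas sequence likeness runs across the clusters.

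The mature arms are shown because likeness between them sets how far the values of the members are separate measurements. They are RefSeq sequences with build GRCm38.p6, found for mir-30a, mir-30c-1, mir-30c-2, mir-30e and mir-384, with bases 2 to 8 in capitals:
miR-30a-5p: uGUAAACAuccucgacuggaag
miR-30e-5p: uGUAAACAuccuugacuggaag
miR-30c-5p: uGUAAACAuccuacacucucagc
miR-384-5p: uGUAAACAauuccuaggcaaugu
miR-30a-3p: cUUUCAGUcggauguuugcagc
miR-30e-3p: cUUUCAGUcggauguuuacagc
miR-30c-1-3p: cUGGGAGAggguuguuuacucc
miR-30c-2-3p: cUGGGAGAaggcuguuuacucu

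Counted from 1 at the 5′ end, miR-30a-5p and miR-30e-5p differed by the substitution C13U and their 3p arms by G18A. The precursors mir-30c-1 and mir-30c-2 share their 5p arm whole, and their 3p arms differed by G9A, U12C and C22U. miR-30a-5p and miR-30c-5p were identical over their first 12 bases and had 5 mismatches over 22. Of 1674 different mature sequences searched, 4 had the miR-30 seed at bases 2 to 8. The reference held no entry for mir-30b and mir-30d, so their arms were not part of the search. Among the sequences searched, the only carrier outside the family was miR-384-5p, which had 10 mismatches to miR-30a-5p over 22 bases. The deposited values are per precursor, so the arms cannot be told apart in them. The hairpins of mir-30a and mir-30e show, in capitals, the 2 arms from which reads of either precursor could come:
Mir30a: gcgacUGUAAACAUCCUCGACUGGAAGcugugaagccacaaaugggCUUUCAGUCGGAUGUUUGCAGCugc
Mir30e: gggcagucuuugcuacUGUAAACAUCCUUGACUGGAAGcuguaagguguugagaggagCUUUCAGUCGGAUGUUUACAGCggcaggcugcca

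The library totals behind the values were 5480940 to 7478237 reads, worked out from the steps of the RPKM values (reads per kilobase of precursor, scaled to a library of 1000000 reads). The reads of all rows added up to 1.55 to 1.86 times these totals, so that many reads were counted at more than 1 precursor. The tissue label was met by its markers: the photoreceptor list mir-182, mir-183 and mir-96 summed to 7568213 to 7894241 RPKM in control libraries and to 4037712 to 4911543 RPKM in those of knockouts, and 2 of these 3 fell. Precursors listed as markers of other cells and tissue were present too. They are to be read against the 69.4% of all tested precursors that rose in the deposited values. Whether each is particular to the cell type of its list was not tested here. In control and then in cKO libraries the pigment epithelium list mir-204 and mir-211 (2 of 2 rose) summed to 655315 to 758334 and 1197357 to 1475670 RPKM. The vascular list mir-126, mir-143 and mir-145a (3 of 3 rose) summed to 18667 to 34997 and 41036 to 54676 RPKM, the red cell list mir-451a, mir-144 and mir-486 (2 of 3 rose) to 16553 to 19359 and 26667 to 31080 RPKM, and the lens and cornea list mir-184, mir-31 and mir-205 (0 of 3 passed) to 2499 to 54376 and 25397 to 63458 RPKM. Of 6 names on the muscle list, 4 were found among the deposited names, and mir-133a-1, mir-133a-2 and mir-133b were tested (3 of 3 rose). The 4 summed to 1161 to 2021 and 1948 to 3054 RPKM. Not found under their listed names were mir-1-1 and mir-1-2, and the deposited row mir-1a-2, which holds reads, is not in this sum. The neuron list of 3 mir-124 copies (0 of 3 passed) summed to 203586 to 291230 and 222199 to 265609 RPKM. The inner retina list of 4 mir-181 precursors (4 of 4 rose) summed to 5318257 to 5718635 and 8571576 to 9429293 RPKM. With the median-of-ratios scaling described below, 1 vascular marker, mir-126, rose, the 3 photoreceptor and the 3 mir-124 precursors fell, and no other marker passed. None of these lists had a listed member at 0 in every library. The 3 mir-124 copies had near-equal log2 fold changes as deposited (-0.071, -0.070 and -0.071), as had mir-181a-1 and mir-181a-2 (0.71 each). Such copies can share reads, so these counts are not of separate measurements and the sums can hold a read more than once. The part of these lists in the values below was not tested. In whole retina, fewer cells of a type and less RNA per cell cannot be told apart.

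The family was abundant in both genotypes. By mean RPKM over the 6 libraries mir-30a ranked 5, mir-30d 9, mir-30e 12, mir-30c-2 40, mir-30c-1 45 and mir-30b 62 among the 855 precursors. The most abundant precursor, mir-182, averaged 7295946 ± 311516 RPKM over controls (SD, n = 3) and 4024508 ± 429841 RPKM over knockouts (SD, n = 3), and fell by 0.86 on the log2 scale (limma adjusted p = 2.4e-04).

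Levels of mir-30a were 362701, 380621 and 391402 RPKM in control 1 to 3 and 437459, 475827 and 484409 RPKM in cKO 1 to 3. The groups did not overlap, and mir-30a rose 1.23-fold (95% interval 1.06 to 1.43), or by 0.30 on the log2 scale (SE 0.095; limma adjusted p = 0.018). Its cluster partner mir-30c-2 held 32079, 31858 and 37365 RPKM in control and 39436, 45487 and 45435 RPKM in cKO libraries. Control 3 lay nearest to the cKO group, still below cKO 1. The rise of mir-30c-2 was 1.29-fold, or 0.36 on the log2 scale (SE 0.12; limma adjusted p = 0.024).

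In the second cluster mir-30d held 306113, 321863 and 331218 RPKM in control 1 to 3 against 371142, 404137 and 411755 RPKM in cKO 1 to 3, a rise of 0.31 on the log2 scale (SE 0.096; limma adjusted p = 0.017). Its partner mir-30b, the least abundant member, held 13924, 13756 and 16314 RPKM in control and 18477, 22063 and 21050 RPKM in cKO libraries. All cKO libraries lay above all control libraries for both. For mir-30b the rise was 1.40-fold (95% interval 1.14 to 1.71), or 0.49 on the log2 scale (SE 0.13; limma adjusted p = 0.0083).

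In the Nfyc cluster mir-30e held 264967, 275955 and 283096 RPKM in control 1 to 3 against 321048, 347594 and 353599 RPKM in cKO 1 to 3, a rise of 0.31 on the log2 scale (SE 0.096; limma adjusted p = 0.016). The values of mir-30c-1 were 30209, 29931 and 35142 RPKM in control and 37131, 42698 and 42685 RPKM in cKO libraries. Here too the groups did not overlap, and mir-30c-1 rose by 0.36 (SE 0.12; limma adjusted p = 0.025). As deposited, then, 6 of 6 members rose, where 69.4% of all tested precursors rose and 71.6% had all cKO libraries above all control libraries. No member fell, against 1.74% of tested precursors, and none had all cKO libraries below all controls, against 1.95%. Without the variance trend in limma, 1 of 6 passed, mir-30b (adjusted p = 0.023), and the other five did not (adjusted p = 0.053 to 0.066), where 66.6% of all tested precursors rose and 1.3% fell. The median log2 fold change of the members was 0.34, against 0.74 over all 461 tested precursors.

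Without control 2, cKO 2 or cKO 3 the calls of mir-30a, mir-30c-1, mir-30c-2, mir-30d and mir-30e ended (limma adjusted p = 0.058 to 0.10), and without cKO 2 that of mir-30b ended as well (adjusted p = 0.052). When each of the 6 libraries was left out in turn, the members' log2 fold changes stayed between 0.27 and 0.56. Read shares show the depth behind these values. In control 1 mir-30a took 2.575% of library reads (Wilson 95% interval 2.564% to 2.587%) and in cKO 3 it took 3.439% (3.424% to 3.455%). For mir-30b these shares were 0.1337% (0.1311% to 0.1363%) and 0.2021% (0.1984% to 0.2059%). Counting error alone sets the width of these intervals, and copies made by PCR were not told apart from separate molecules.

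**Figure D1:**
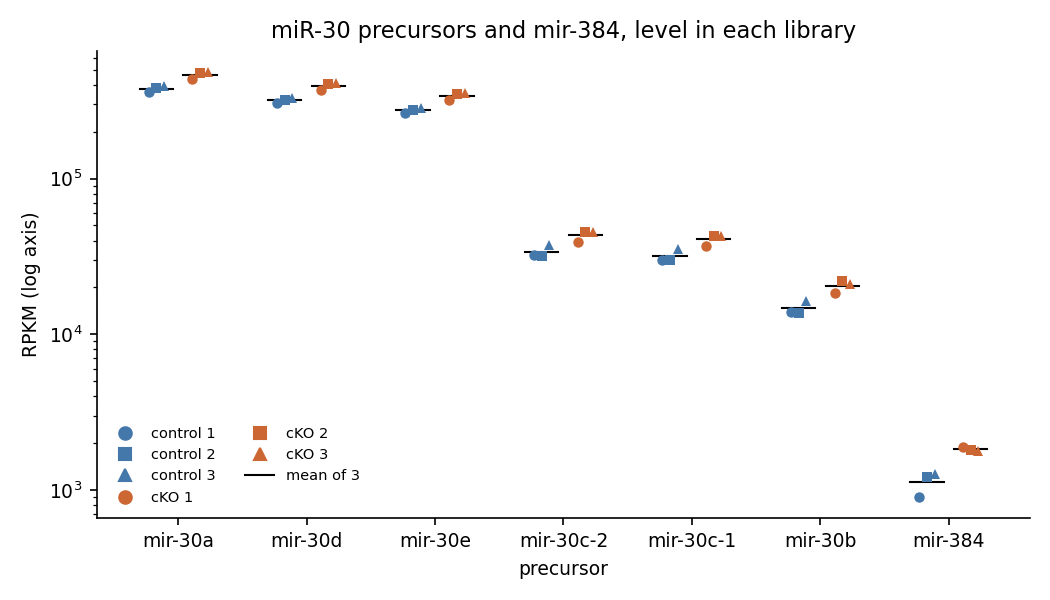
Level in RPKM (vertical log axis) of the 6 miR-30 precursors and mir-384 in each library, with control in blue, cKO in orange, symbols for the 3 libraries and a line at each group's mean. For each precursor the 3 cKO libraries lie above the 3 control libraries, and mir-30a, mir-30d and mir-30e lie 7.58- to 27.7-fold above the other 3 members within a library.

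The direction of the family turned with the scaling of the libraries, and members passed as falls under 2 of the other 4 scalings. RPKM is relative to a library total of which mir-182 took 53.2% to 57.4% in control and 27.7% to 33.8% in cKO libraries. Median-of-ratios scaling sets the typical precursor equal between libraries, and with it the median over all tested precursors was 0.018 in place of 0.74. Whether the typical precursor was unchanged was not tested. Rises and falls with this scaling are relative to that precursor and are not amounts per retina. Scaled in this way mir-30a stood at 489410, 499026 and 463821 in control and at 351717, 352700 and 372187 in cKO libraries, all below control. It fell by 0.43 on the log2 scale (SE 0.086; limma adjusted p = 0.0090), mir-30d by 0.42 (adjusted p = 0.010) and mir-30e by 0.42 (adjusted p = 0.011). The copies mir-30c-1 and mir-30c-2 each fell by 0.37 (adjusted p = 0.040 for either). Scaled values of mir-30b were 18788, 18035 and 19332 in control and 14856, 16354 and 16174 in cKO libraries, and at -0.25 (adjusted p = 0.18) it did not pass. With this scaling 5 of 6 members fell, where 9.98% of all tested precursors fell, and none rose, where 2.17% did. All cKO libraries lay below all controls for 6 of 6 members, where this held for 20% of tested precursors, and above them for none, where it held for 15.2%.

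With the same scaling, no member passed without control 2 or without cKO 2 (limma adjusted p = 0.060 to 0.37). The calls of mir-30c-1 and mir-30c-2 held only without control 1 (adjusted p = 0.037), and those of mir-30a, mir-30d and mir-30e held when any of the other four libraries was left out (adjusted p = 0.013 to 0.033). The members' log2 fold changes ran from -0.47 to -0.20 over these fits. With totals taken without mir-182 reads, mir-30a, mir-30d and mir-30e moved to -0.32, -0.32 and -0.31 and passed as falls (limma adjusted p = 0.015 to 0.020), where 7.81% of all tested precursors fell and 4.34% rose, while mir-30c-1 and mir-30c-2 at -0.26 and mir-30b at -0.14 did not pass. With totals taken without the 10 most abundant precursors the members lay between -0.21 and -0.026 and 0 of 6 passed (limma adjusted p = 0.064 to 0.87), where 12.4% of all tested precursors rose and 6.29% fell. With quantile normalization they lay between -0.23 and 0.032 and 0 of 6 passed (limma adjusted p = 0.14 to 0.97), where 2.6% rose and 6.29% fell.

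Relative to the typical precursor the 6 members lay 0.25 to 0.44 lower in log2 fold change as deposited. Their log2 fold changes stood at the percentiles 14.1 for mir-30a, 14.8 for mir-30d, 15.4 for mir-30e, 18.4 for mir-30c-1, 18.7 for mir-30c-2 and 26.5 for mir-30b of the tested precursors. Abundant precursors as a whole lay lower too. Among the 83 precursors whose mean reached 10000 RPKM the median log2 fold change was 0.52 as deposited and -0.21 with median-of-ratios scaling. Of these 83, 62 rose as deposited, where 69.4% of all tested precursors rose. With that scaling 23 fell, where 9.98% of all tested precursors fell. The 83 include the 6 members and the row mir-30f described below.

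**Figure D2:**
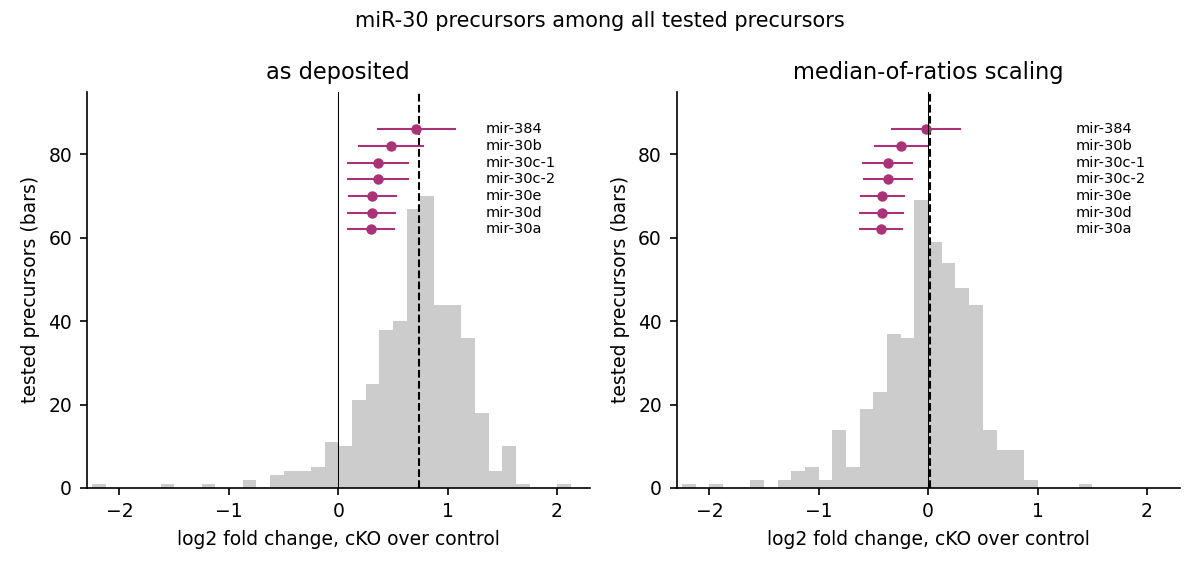
Histograms of the log2 fold change (cKO over control, horizontal axis; number of tested precursors, vertical axis) as deposited and with median-of-ratios scaling, with the median as a dashed line and the members and mir-384 as points with limma 95% intervals, placed above the bars for legibility. The 6 members lie between 0.30 and 0.49 as deposited and between -0.43 and -0.25 after scaling, below the median in both panels, and mir-384 lies next to the median.

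**Figure D3:**
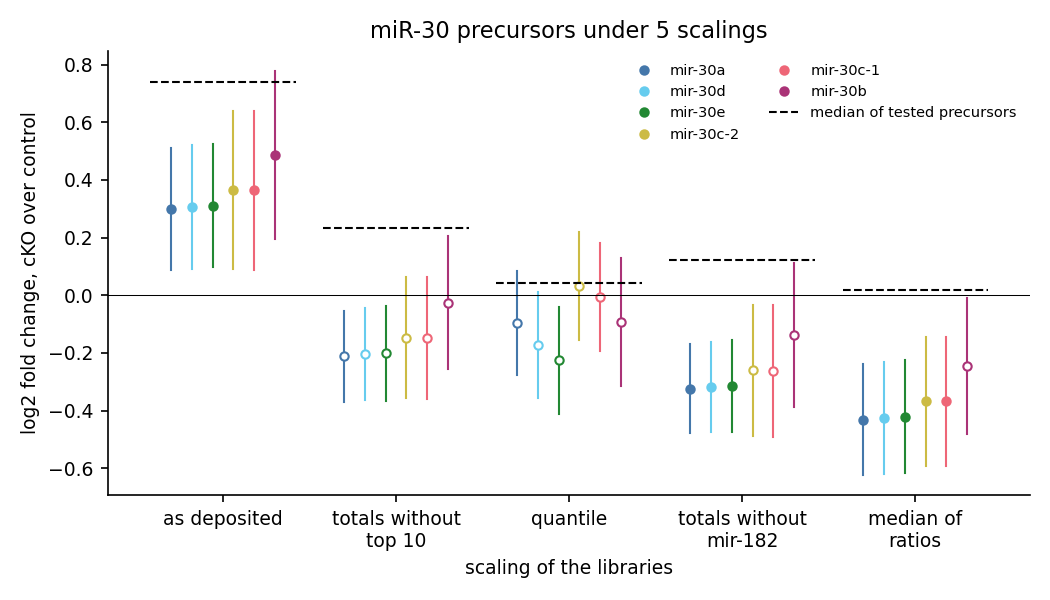
Log2 fold change (cKO over control, vertical axis) of each member under 5 ways of scaling the libraries (horizontal axis), with limma 95% intervals, filled points for adjusted p below 0.05 and a dashed line at the median of all tested precursors. Every member rose as deposited. With the other four scalings members lie at or below 0.032, and each of them lies below the dashed median under every scaling shown.

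Members with near-equal reads lay in different genomic clusters. In reads, mir-30a, mir-30d and mir-30e were within 1.02- to 1.07-fold of each other in every library. In control 1 they held 192578, 187713 and 182297 reads, and in cKO 3 they held 188506, 185058 and 178301 reads. Their order in RPKM was the same in each library, but with nearly equal reads it is the order of the precursor lengths by which RPKM divides, 71, 82 and 92 bases. The copies mir-30c-2 and mir-30c-1, of 84 and 89 bases, were closer still, at 20151 and 20106 reads in control 1 and 20918 and 20822 in cKO 3, a ratio of 1.00 to 1.01 over the 6 libraries. These 4 pairs of near-equal precursors each join different genomic clusters. Within clusters the reads were far apart: mir-30a held 8.84 to 10.1 times the reads of mir-30c-2, mir-30e 8.33 to 9.53 times those of mir-30c-1, and mir-30d 15.6 to 19.99 times those of mir-30b.

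From the near-equal reads and the summed reads above the library totals, reads that fit several of these precursors were taken to appear at each, which is inferred and not stated in the sources read here. On that reading the 6 rows are nearer to 3 measurements: mir-30a with mir-30d and mir-30e, mir-30c-1 with mir-30c-2, and mir-30b. The number of reads shared within or between these 3 groups was not measured. The family's part of a library therefore has bounds only. It was at least the share of mir-30a, 2.58% to 2.78% in control and 3.11% to 3.44% in cKO libraries, and at most the sum of the 6 members, 8.19% to 8.88% in control and 9.94% to 11.0% in cKO libraries.

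A row of the table outside the 6 members showed the same counting. The precursor mir-30f is annotated on the opposite strand of the mir-30e interval, and its values equalled those of mir-30e in every library. The deposited counts therefore do not separate the strands here, and mir-30f is not a separate measurement. Its annotated mature sequence, credited to the same RefSeq table, is shown because the miR-30 seed starts at base 1 in it. With capitals at bases 2 to 8 as above, and so not at that seed, it is
miR-30f: gUAAACAUccgacugaaagcuc

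**Figure D4:**
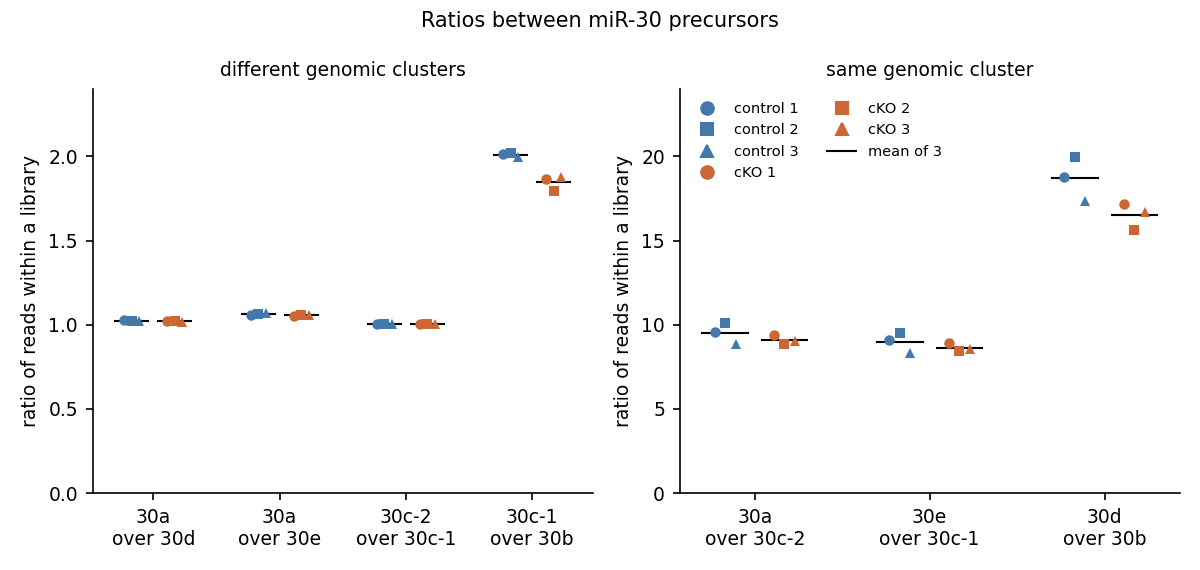
Ratio of reads between miR-30 precursors within each library (vertical axes, from 0), for pairs from different genomic clusters at left and for the 3 pairs of the same cluster at right, with control in blue, cKO in orange and a line at each mean. Ratios of mir-30a over mir-30d, mir-30a over mir-30e and mir-30c-2 over mir-30c-1 lie between 1.00 and 1.07 in every library, mir-30c-1 over mir-30b lies lower in cKO libraries, and pairs of the same cluster lie between 8.33 and 19.99.

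Ratios of members within a library do not depend on the library total, and 15 pairs were compared between genotypes. The 3 libraries per genotype allow no exact two-sided permutation p below 0.1. Ratios of the mir-30c copies to mir-30b did not overlap between genotypes. The precursor mir-30c-1 held 2.01, 2.02 and 2.00 times the reads of mir-30b in control 1 to 3 and 1.86, 1.79 and 1.88 times in cKO 1 to 3. On the log2 scale of RPKM + 1 this ratio averaged 1.12 ± 0.0075 over controls (SD, n = 3) and 0.99 ± 0.036 over knockouts (SD, n = 3), a difference of -0.12 (exact two-sided permutation p = 0.1; 0.3 adjusted over the 15 pairs). With mir-30c-2 in place of mir-30c-1 the difference was also -0.12 (exact permutation p = 0.1; adjusted 0.3).

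Against mir-30b, mir-30a averaged 4.69 ± 0.10 over controls and 4.51 ± 0.069 over knockouts on the log2 scale (SD, n = 3), a difference of -0.19 (exact permutation p = 0.1; adjusted 0.3). The ratio of mir-30d to mir-30b, its cluster partner, differed by -0.18 (exact permutation p = 0.1; adjusted 0.3). Both had groups that did not overlap, whereas mir-30e over mir-30b, at -0.18, overlapped (exact permutation p = 0.2, adjusted 0.5). The members mir-30a, mir-30d and mir-30e against either mir-30c copy differed by -0.053 to -0.065 with overlapping groups (exact permutation p = 0.3 to 0.5, adjusted 0.54), where the SE of these differences was 0.060 to 0.063. Of the 15 pairs, 5 did not overlap between genotypes, 1 of the 3 within clusters and 4 of the 12 between clusters. These pairs are not separate: all but mir-30a over mir-30d have mir-30b in common, and several members have near-equal reads. The share of pairs without overlap among other precursors was not computed, so the counts give no result about the clusters. With this number of libraries none could pass after adjustment.

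The fifth pair without overlap was mir-30a over mir-30d, whose log2 ratio moved only from 0.242 ± 0.0020 to 0.236 ± 0.0014, a difference of -0.0068 (SD, n = 3 each; exact permutation p = 0.1, adjusted 0.3). The net difference, reads at mir-30a minus reads at mir-30d, cancels every read counted at both. Scaled to 1000000 library reads (RPM) it was 651, 631 and 630 in control 1 to 3 and 626, 644 and 629 in cKO 1 to 3, so the genotypes overlapped (exact two-sided permutation p = 0.5). Over the same libraries mir-30a itself went from 25752, 27024 and 27790 to 31060, 33784 and 34393 RPM. The net difference was thus 1.83% to 2.53% of the reads at mir-30a. It is reads at mir-30a alone less reads at mir-30d alone, neither of which the values give.

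Net differences between the other near-equal pairs were chosen for display after their values were seen, as was that of mir-30a and mir-30d. The net difference of mir-30d over mir-30e was 724, 1005 and 1115 RPM in control and 897, 1161 and 1233 in cKO libraries, and that of mir-30c-2 over mir-30c-1 was 6.02, 12.2 and 11.0 against 7.94, 20.8 and 17.5. In both, library 1 of each genotype was the lowest and the genotypes overlapped (exact two-sided permutation p = 0.4 and 0.3; adjusted over 4 net differences 0.5 for each).

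**Figure D5:**
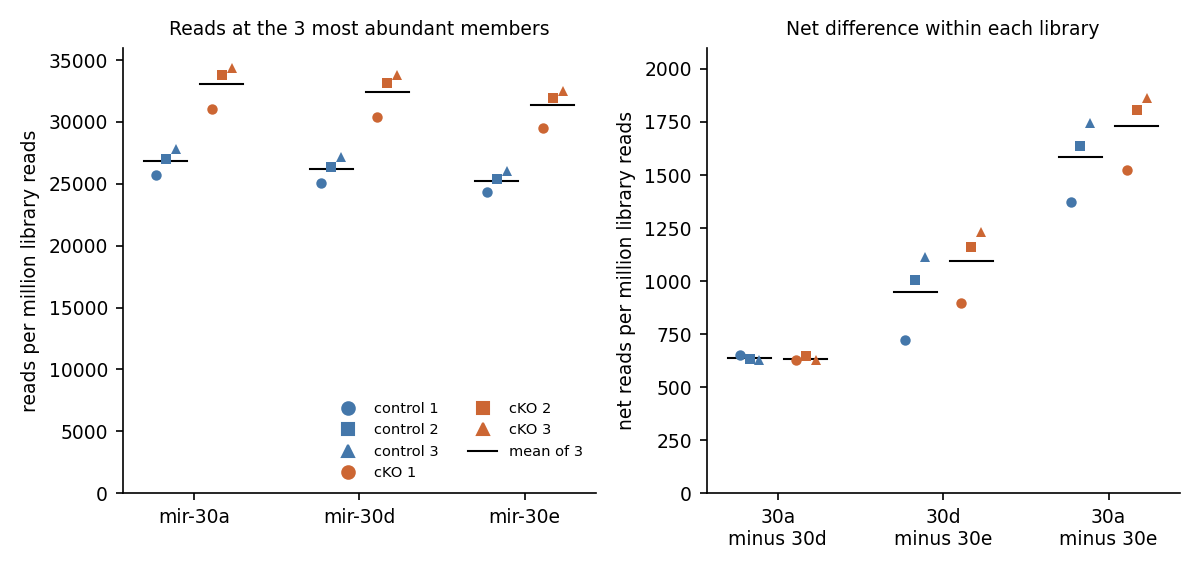
Reads scaled to 1000000 library reads (RPM) at mir-30a, mir-30d and mir-30e in each library (left) and the net differences between them within a library (right), both axes from 0, with control in blue, cKO in orange and lines at the means. All 3 precursors lie higher in each cKO library than in any control library, while mir-30a minus mir-30d lies between 626 and 651 in all 6 libraries.

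The related mir-384 is a less similar precursor whose 5p arm carries the same seed, though its values do not tell the arms apart. Its levels were 906, 1202 and 1267 RPKM in control and 1889, 1811 and 1779 RPKM in cKO libraries, from 596 to 1151 reads per library. The groups did not overlap, and control 1 lay below the other controls. It rose 1.64-fold (95% interval 1.28 to 2.10), or 0.71 on the log2 scale (SE 0.16; limma adjusted p = 0.0031). After median-of-ratios scaling it stood at -0.018 (adjusted p = 0.95), close to the typical precursor, where 5 of 6 miR-30 members had fallen. The difference between mir-384 and the members was not tested.

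Other broadly expressed families give a scale for these values. As deposited 12 of 12 let-7 precursors rose (median log2 fold change 0.45), as did 3 of 3 of miR-26 (0.52), 3 of 3 of miR-103 and miR-107 together (0.76) and 3 of 3 of miR-99/100 (1.06), and 0 of 4 of miR-29 passed (0.47). Of all tested precursors 69.4% rose as deposited. The miR-30 median of 0.34 was below each of these medians. With median-of-ratios scaling the medians were -0.39 for miR-30, -0.28 for let-7, -0.21 for miR-26, -0.26 for miR-29, 0.028 for miR-103 and miR-107 and 0.33 for miR-99/100. After that scaling no member of these comparison families passed in either direction, where 5 miR-30 precursors had fallen. Of all tested precursors 9.98% fell and 2.17% rose with it. The lowest member of the comparison families, let-7g, stood at -0.40 (limma adjusted p = 0.078), within the range of those 5 miR-30 precursors. Members of these families share reads as well, so the counts are not of separate measurements, and no test set the families against each other.

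Profiles most like those of the members were sought among precursors outside the family whose mean reached 1000 RPKM, by the root mean square difference of centred log2 values over the 6 libraries. The precursor mir-192, a miRNA of epithelia, was nearest to mir-30a, mir-30d and mir-30e, at 0.038, 0.039 and 0.036. It averaged 7718 ± 328 RPKM over controls (SD, n = 3) and 9544 ± 402 RPKM over knockouts (SD, n = 3), a rise of 0.31 on the log2 scale (limma adjusted p = 0.042). Next came mir-23a, at 0.067, 0.069 and 0.071 from the same members, which did not pass at 0.23 (limma adjusted p = 0.15). The third nearest was mir-101b for mir-30a and mir-30d (0.11 and 0.10) and let-7i for mir-30e (0.10). With median-of-ratios scaling mir-192 stood at -0.43, mir-23a at -0.50, mir-101b at -0.30 and let-7i at -0.26. The members mir-30a, mir-30d and mir-30e stood at -0.43, -0.42 and -0.42 with it.

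For mir-30b the nearest were let-7i at 0.074, mir-22 at 0.087 and mir-26a-1 at 0.087, and these 3 rose by 0.47, 0.51 and 0.52 on the log2 scale (limma adjusted p = 0.0062, 0.013 and 0.0036). For mir-30c-1 they were mir-23b at 0.066, let-7i at 0.086 and mir-320 at 0.095, and for mir-30c-2 the same names at 0.067, 0.086 and 0.094. As deposited mir-23b did not pass at 0.24 (limma adjusted p = 0.13), and with median-of-ratios scaling it stood at -0.49. With that scaling let-7i stood at -0.26, mir-320 at -0.34 and the mir-30c copies at -0.37. Distances inside the family were 0.0037 from mir-30a to mir-30d, 0.0071 from mir-30a to mir-30e and 0.0017 between the mir-30c copies, precursors with near-equal reads. From mir-30b to the mir-30c copies the distance was 0.064 to 0.065, and from mir-30b to its cluster partner mir-30d 0.11.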

How the data were processed

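Small RNA libraries were made, per the labels' protocols, from 1 µg of total RNA of 6 pooled retinas with 11 PCR rounds and sequenced in a shared 50-base run. The authors deposited RPKM values per miRNA precursor. Bowtie and mm9 are named in the submitters' processing notes; versions, filters, permitted mismatches, strand use and the handling of reads with several matches are not given in the sources read here. RPKM times precursor length was a whole multiple of a fixed step in each library for 100.0% of 3254 values (tolerance 0.01 reads), with annotated lengths for 828 precursors, which gave whole reads and library totals, the smallest step being taken as 1 read. Lengths of 23 more were taken as the shortest that gave whole reads. No coordinates are printed, since the reference is of another build (GRCm38).

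Differences (cKO minus control) in unscaled log2(RPKM + 1) were tested by limma 3.58.1 under R 4.3.3 (eBayes with trend, two-sided) where the mean reached 10 RPKM, with Benjamini-Hochberg adjustment over all 461 and a threshold of 0.05. This scale understates changes of low precursors. Ratios and net differences were tested by exact permutation (scipy 1.17.1), and figures drawn with matplotlib 3.10.9. The fit was tested on data simulated with independent rows, which hold no shared reads, and that outcome is not used here. The labels call samples replicates but do not say which mice went into which pool, so p values measure the spread between these libraries. Dicer1 mRNA was not analysed here. Named are the members, mir-182, precursors with the miR-30 seed, mir-30f and the 3 nearest profiles of each member. Markers are named to identify their lists, and the opposite-strand pairs were named after their values were seen. The members and lists were chosen with earlier results of these data known.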

Additional observations from a re-analysis of the deposited data

How the results depend on the processing

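As deposited, 320 precursors rose and 8 fell. Scaling changed this most: median-of-ratios scaling gave 10 and 46 (median log2 fold change 0.018), quantile normalization 12 and 29 (0.042), totals without mir-182 reads 20 and 36 (0.12) and totals without the 10 most abundant precursors 57 and 29 (0.23). A filter at 100 RPKM, which tests fewer precursors, left 4 that fell. In the order mir-30a, mir-30b, mir-30c-1, mir-30c-2, mir-30d and mir-30e, log2 fold changes were -0.43, -0.25, -0.37, -0.37, -0.42 and -0.42 with median-of-ratios scaling, -0.32, -0.14, -0.26, -0.26, -0.32 and -0.31 without mir-182 reads, -0.21, -0.026, -0.15, -0.15, -0.20 and -0.20 without the 10 most abundant, and -0.096, -0.093, -0.0063, 0.032, -0.17 and -0.23 with quantile normalization. No member passed under the last 2 of these scalings (limma adjusted p = 0.064 to 0.97). Without the variance trend mir-30a, mir-30c-1, mir-30c-2, mir-30d and mir-30e no longer passed, at an unchanged 0.30, 0.36, 0.36, 0.31 and 0.31 (limma adjusted p = 0.066, 0.053, 0.053, 0.062 and 0.058). The remaining settings (pseudocounts 0.1 and 10, no filter, a filter at 100 RPKM, a robust variance model, near-identical precursors summed, voom on whole reads, replicate block) kept the 6 calls, and voom on whole reads called 324 that rose and 8 that fell. Summing went by hairpin sequences, which were lacking for mir-30b and mir-30d. It joined mir-30a with mir-30e (0.30) and mir-30c-1 with mir-30c-2 (0.36), while mir-30d stayed apart at 0.31.

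With each library left out in turn, the count that rose ran from 252 to 322, the count that fell from 4 to 12, and log2 fold changes from 0.27 to 0.34 for mir-30a, 0.43 to 0.56 for mir-30b, 0.32 to 0.44 for mir-30c-1 and mir-30c-2, and 0.28 to 0.35 for mir-30d and mir-30e. With median-of-ratios scaling as well, chosen after seeing the data, and with control 1 to 3 and then cKO 1 to 3 left out, they were -0.41, -0.42, -0.45, -0.42, -0.42 and -0.47 for mir-30a, -0.22, -0.28, -0.21, -0.20, -0.27 and -0.27 for mir-30b, -0.35, -0.40, -0.33, -0.33, -0.37 and -0.41 for both mir-30c copies, -0.40, -0.41, -0.44, -0.41, -0.41 and -0.46 for mir-30d and -0.39, -0.41, -0.44, -0.41, -0.41 and -0.45 for mir-30e. The difference in log2 ratio of mir-30d over mir-30e, -0.0035, ran from -0.0088 to 0.00030, and the net difference of mir-30a minus mir-30d, -3.99 RPM between genotypes, from -9.64 to 2.71, so neither has a settled direction. The cause of these changes was not tested.

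Same-numbered libraries were not taken as pairs: their deviations from the group means correlated at 0.19, 0.26 and 0.0093. With the replicate block, 338 rose and 10 fell and mir-30a stood at 0.30 (limma adjusted p = 0.013). Depth limits mir-384 most, at 596 to 1151 reads, and the net difference of the mir-30c copies, at 45 to 144 reads.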

Other observations

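Precursors annotated on opposite strands and overlapping there showed how far the deposited counts separate strands. Of 12 such pairs with reads, 7 held the same reads in every library. These included all 3 pairs that share a whole interval, mir-30e with mir-30f, mir-451a with mir-451b and mir-873a with mir-873b.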
